A study of Mus musculus with 8 samples.

Results

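Iron enters, rests in and leaves the cells of the liver through a small set of proteins, and 10 genes that encode them were described across the cell classes, annotated cell types and clusters of the adult mouse liver. The 10 genes were taken by name from the 46517 genes of the count table, and all 10 were found there. They are Hamp, Tfr2, Tfrc, Scara5, Slc11a1, Hmox1, Fth1, Ftl1, Slc40a1 and Cp. They were selected on their measured levels across these cell types, which were known when the genes were chosen, so the levels below are a description and carry no test. The only test was of the difference between female and male cells, which had no part in the choice.

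The study sorted single liver cells into plates and sequenced full-length cDNA of each cell by Smart-seq2. The mice were healthy adult males and females from 8 weeks to a year old, of C57BL6/J background or carrying heterozygous reporter transgenes (Pdgfrb-GFP, Pdgfra-H2bGFP, Cspg4-dsRED, Acta2-GFP, Cldn5-GFP) in several combinations. Endothelial cells were sorted by antibodies to CD31, VE-Cadherin or both, or by the Cldn5-GFP signal, cholangiocytes by EPCAM, macrophages by CD68 and mesenchymal cells by reporters and PDGFRα, while hepatocytes came from an unselected sort of living cells. The livers were not perfused, and the number of cells of each kind reflects the sort and not the makeup of the organ.

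The deposited samples are 8 pools of cells, a male and a female pool for each of 4 cell classes. The male and female pools held 998 and 339 mesenchymal cells, 655 and 451 endothelial cells, 255 and 396 immune cells, and 358 and 39 epithelial cells, 3491 in all. Depth ran from 47063 to 1128421 counts per cell with a median of 228708. The female epithelial pool was the shallowest, with a median of 88932 counts per cell, and the female mesenchymal pool, all from 1 plate, the deepest with 321121. Each of the 22 plates held cells of 1 sex, so sex cannot be told apart from plate, and individual mice are not named in the labels. Female pools held Xist at 173 CPM (counts of a gene per 1000000 counts) or more and male pools at no more than 0.196 CPM, and no cell name occurred in more than 1 pool.

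Iron travels in plasma bound to transferrin and is taken up by the transferrin receptor TFRC, and ferritin bound by SCARA5 is another route into the cell. Macrophages such as Kupffer cells engulf old red cells, split haem with haem oxygenase 1 (HMOX1) and move iron out of the phagosome with the transporter SLC11A1, also called NRAMP1. Ferritin, a shell of heavy (FTH1) and light (FTL1) chains, stores iron. Ferroportin (SLC40A1) is the known iron exporter of mammalian cells, and ceruloplasmin (CP) is a copper oxidase that helps load exported iron onto transferrin. The liver hormone hepcidin, encoded by Hamp, binds ferroportin and closes this exit, and transferrin receptor 2 (TFR2) is part of the sensor that sets hepcidin to the iron in plasma.

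Part of this control is written in the transcripts themselves. Iron regulatory proteins bind a short hairpin, the iron-responsive element, which holds back translation when it lies in the 5′ untranslated region (UTR) and protects the transcript from decay when it lies in the 3′ UTR. The elements are shown because they divide the members into 1 uptake gene with elements at the 3′ end and 3 storage and export genes with an element at the 5′ end. They were searched on the transcribed strand of 1 transcript per gene as an unpaired C, 5 bases, the loop CAGTGN with a last base other than G, and 5 bases pairing with the first 5. Capitals mark the unpaired C and the loop.
Tfrc 3′ UTR, element 1: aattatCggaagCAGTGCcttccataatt
Tfrc 3′ UTR, element 2: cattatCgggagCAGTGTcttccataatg
Tfrc 3′ UTR, element 3: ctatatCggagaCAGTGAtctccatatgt
Tfrc 3′ UTR, element 4: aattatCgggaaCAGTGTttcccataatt
Slc40a1 5′ UTR: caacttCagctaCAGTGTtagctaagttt
Fth1 5′ UTR: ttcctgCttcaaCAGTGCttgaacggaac
Ftl1 5′ UTR: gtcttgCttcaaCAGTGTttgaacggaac

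The sequences come from the GRCm38 genome with GENCODE transcripts. The 4 Tfrc elements lie on the plus strand at chr16:32631219-32631247, chr16:32631598-32631626, chr16:32631663-32631691 and chr16:32631710-32631738, within the 3′ UTR. The Slc40a1 element lies at chr1:45925465-45925493 on the minus strand, the Fth1 element at chr19:9982732-9982760 on the plus strand, and the Ftl1 element at chr7:45459779-45459807 on the minus strand, each in the 5′ UTR. The same letters and pairing occurred in the 5′ UTR of 16 of 21732 genes (0.0736%) and in the 3′ UTR of 83 of 21732 genes (0.382%). Among windows as long as the members' own UTRs, the shares were 0.749% of 3336 genes for Tfrc, 0.149% of 4711 for Slc40a1, 0.0786% of 7631 for Fth1 and 0.0765% of 6536 for Ftl1. No match was found in the UTRs used for the other 6 members, which says only that these letters are not there. RNA counts do not measure translation, so the work of the 5′ elements is not visible in the values below.

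Levels are given as CPM of the counts summed over the cells of a group, first for the male and then for the female pool where both are given. Immune cells held the highest level of 6 of the 10 members, epithelial cells of 3 and mesenchymal cells of 1. For Fth1 and Tfr2 the ranges of the leading and the next class overlapped between pools, and for the other 8 members both pools of the leading class lay above both pools of the next. No share of all genes with such a gap is given beside the 8, so the number describes these members only. For each class the mean of the male and female levels was taken, and these means were added up over the 4 classes. The leading class held 94.4% of this total for Scara5 and 93.6% for Slc11a1, but 34.2% for Fth1 and 36.1% for Ftl1. The ferritin genes were thus spread over all classes, while the leading class held 60.5% or more for each of the other 8 members.

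**Figure D1:**
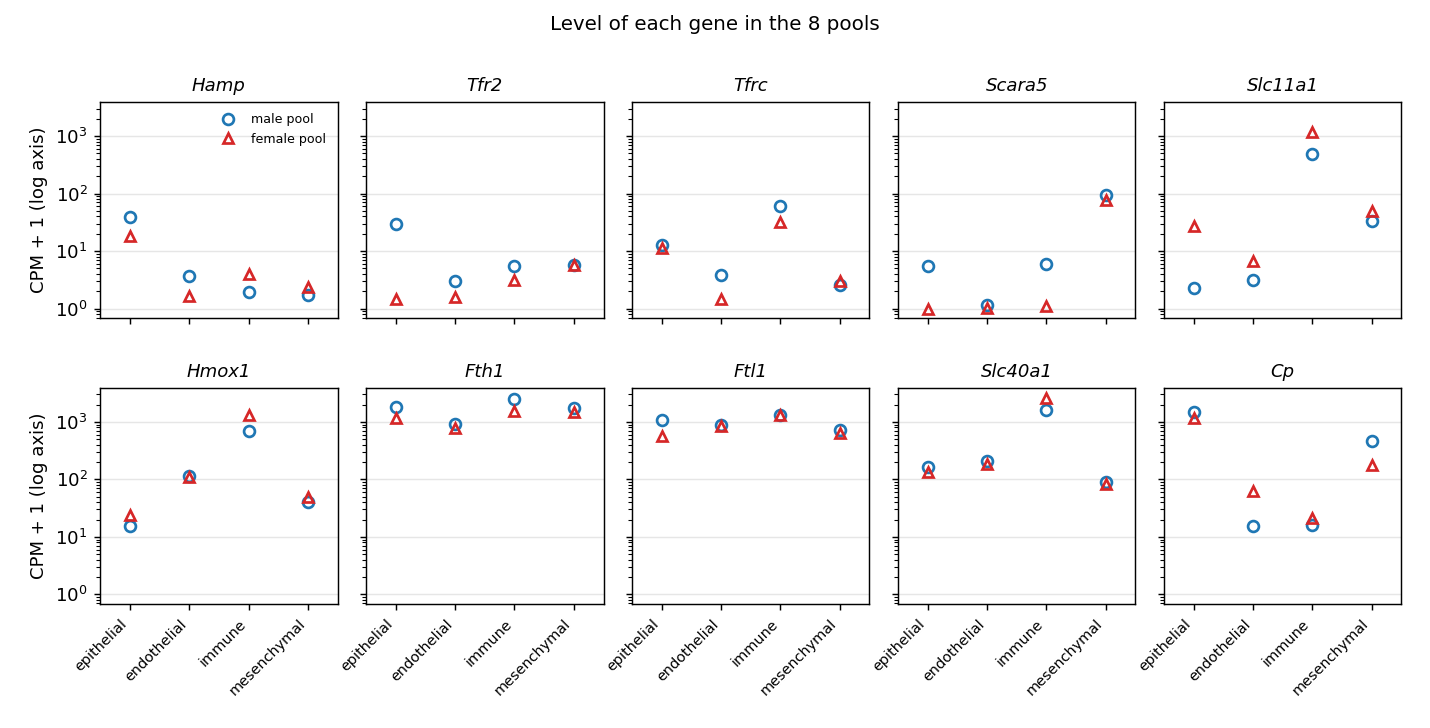
CPM + 1 (log axis) of each of the 10 genes, a panel each, in the male (circle) and the female (triangle) pool of the 4 cell classes. Slc40a1 sits at 1621 and 2646 CPM in the immune pools and at no more than 205 CPM in any other, while the Fth1 points of all classes lie between 772 and 2502 CPM.

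**Figure D2:**
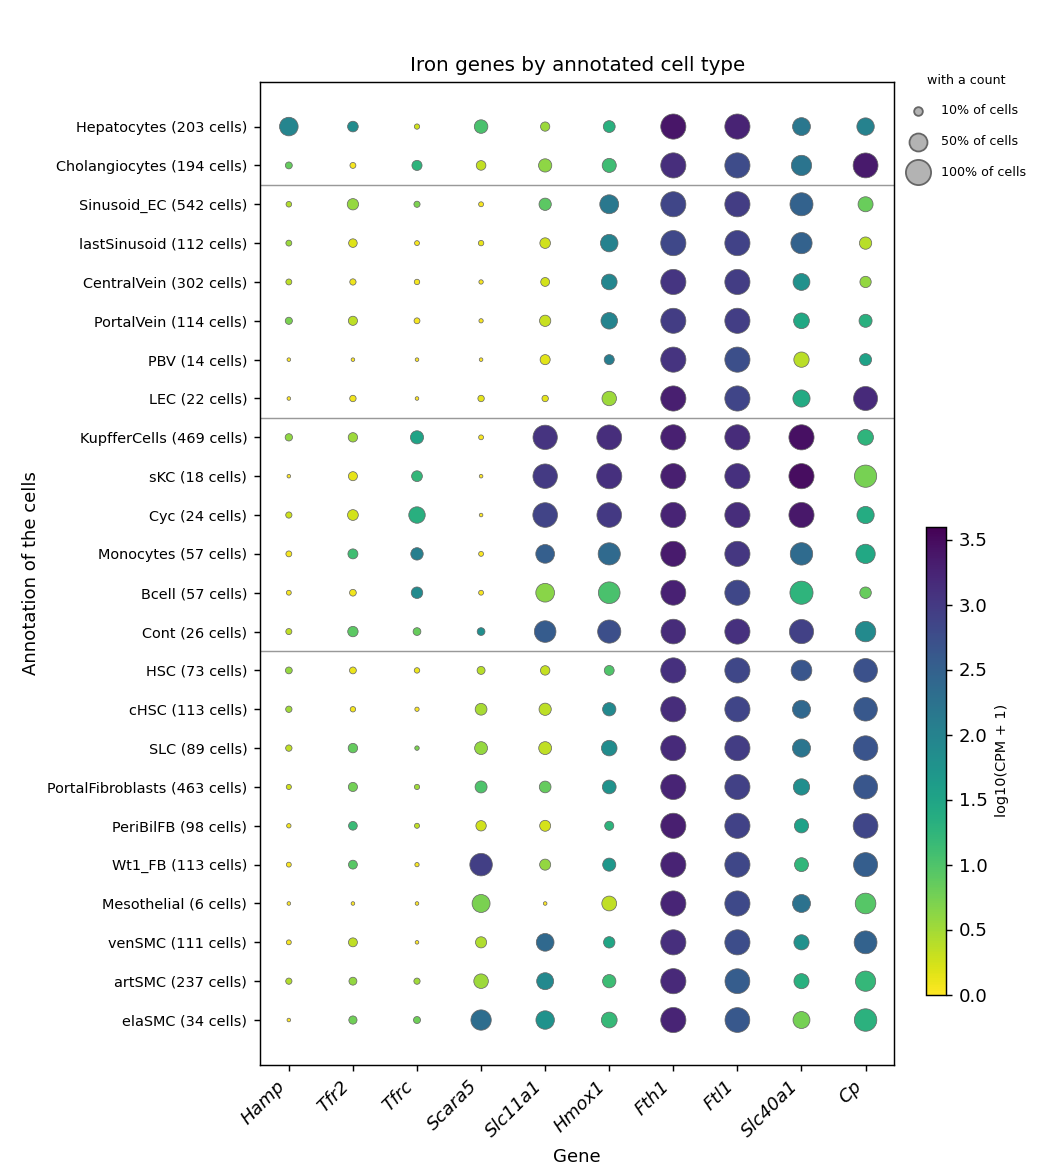
Each annotation (rows, with its number of cells) and each gene (columns), both sexes summed, where the colour gives log10(CPM + 1) and the area of the dot the share of cells with a count. The ferritin columns are dark in every row, and those of Hamp, Scara5 and Slc11a1 in few.

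Hamp, the gene of the iron hormone hepcidin, was counted mainly in hepatocytes. The epithelial pools held 38.5 and 17.7 CPM, and no pool of another class exceeded 2.93 CPM. The 203 cells annotated as hepatocytes, 201 of them male, held 91.0 CPM against 6.16 CPM in the 194 cholangiocytes, a ratio of 14.8. Hamp had at least 1 count in 109 of 203 hepatocytes (46.6 to 60.7%, exact binomial 95% interval, counting error only) and at least 20 counts in 45. The gene lies at chr7:30942368-30944032 on the minus strand of GRCm38. Its transcript of 410 bases is short, and the part of this length in the counts was not tested. The neighbouring Hamp2 gene was counted at 4.74 CPM in epithelial cells, so most counts were assigned to Hamp.

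Hepatocytes were not uniform for Hamp. Clusters p1 and p3 held 154 and 148 CPM, p4 held 70.3 CPM and p5 held 34.1 CPM, and 32 of 64, 13 of 23, 40 of 59 and 24 of 57 cells had a count. The order by level was thus not the order by share of cells, which was largest in p4. Summed over 6 hepatocyte markers (such as Alb and Apoa1), the clusters held 14448 CPM (p1), 26399 CPM (p3), 17649 CPM (p4) and 9582 CPM (p5). Plates with 5 or more hepatocytes ranged from 32.4 to 264 CPM for Hamp. Among red cell markers, the haemoglobin genes lay between 0.583 and 2.86 CPM in hepatocytes, while Alas2, the haem synthesis enzyme of red cells, was at 538 CPM.

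Outside hepatocytes Hamp was low, with and without hepatocyte transcripts beside it. Cholangiocytes held 6.16 CPM of Hamp beside 4510 CPM of the summed hepatocyte markers. The immune cluster i3 held 13.3 CPM of Hamp, and the community cluster i3c held 22.4 CPM beside 2526 CPM of the summed hepatocyte markers. The mesenchymal community cluster m6c held 19.7 CPM, of which 98.3% came from 1 cell, beside 2760 CPM of hepatocyte markers. Male portal vein cells held 8.98 CPM beside 554 CPM of these markers and female cHSC 8.65 CPM beside 948 CPM. The lastSinusoid cells of the male pool held 7.74 CPM beside 162 CPM, and elaSMC and LEC held no Hamp beside 625 and 474 CPM. The part of stray hepatocyte RNA in these values was not tested.

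Tfr2 (chr5:137569840-137587481, plus strand), a transferrin receptor that serves hepcidin control, was counted in few cells even where it was highest. Hepatocytes held 72.4 CPM, but 33 of 203 had a count (11.5 to 22.1%). Cluster p3 held 176 CPM in 6 of 23 cells and p4 held 133 CPM in 19 of 59 cells, against 11.4 CPM in p5 and 7.41 CPM in p1. In p3, 56.1% of the counts came from 1 cell, and in p5 91.7%, so the p4 value rests on the most cells. The epithelial pools differed widely (28.4 and 0.469 CPM), and the female pool held 2 hepatocytes. Cholangiocytes held 0.112 CPM, the lowest value of any annotation with 20 or more cells.

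Hamp and Tfr2 were both counted in 19 of 203 hepatocytes, Hamp alone in 90, Tfr2 alone in 14 and neither in 80. In p4, 14 of 59 cells had both (13.6 to 36.6%). Low Tfr2 values of 13.5 CPM in peribiliary fibroblasts and 11.6 CPM in monocytes came from 10 of 98 and 8 of 57 cells, and in monocytes 1 cell held 96.6% of the counts.

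**Figure D3:**
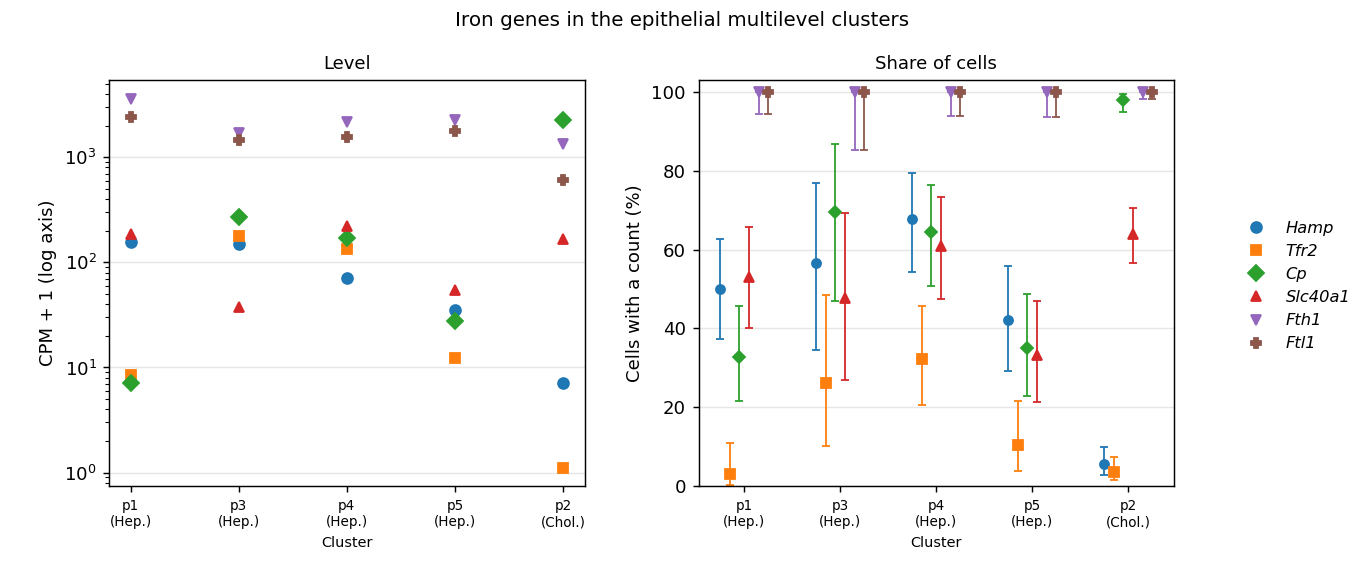
Level as CPM + 1 (left, log axis) and percent of cells with a count (right, bars: exact binomial 95% interval) of 6 members in the hepatocyte clusters p1, p3, p4 and p5 and the cholangiocyte cluster p2. Hamp is counted in more cells of p4 (40 of 59) than of p5 (24 of 57), and Cp is far higher in p2 (2270 CPM) than in any hepatocyte cluster.

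Tfrc (chr16:32608920-32632794, plus strand), the receptor that brings transferrin-bound iron into cells, was low in nearly all liver cells and highest in immune cells. The immune pools held 59.4 and 30.7 CPM, the epithelial pools 11.8 and 10.3 CPM, and no mesenchymal or endothelial pool exceeded 2.77 CPM. Annotated monocytes held 113 CPM and B cells 77 CPM, with a count in 13 and 11 of 57 cells each. Within the monocyte annotation 11 of the 13 cells with a count were in the dendritic subcluster i7c, which held the plasmacytoid markers Siglech and Ccr9: i7c held 301 CPM in 11 of 16 cells (41.3 to 89%), and subcluster i2c held 7.98 CPM. These 16 cells were all male, and 1 plate alone held 5 or more of them.

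Kupffer cells held Tfrc at 31.4 CPM (29.9 and 31.8 CPM in the pools), with a count in 121 of 469 cells. The plates behind this value ranged from 0.356 to 390 CPM, a wide spread for 1 cell type. Cycling Kupffer cells, in which 10 of 24 cells had a count, held 20.3 CPM, and cholangiocytes 17.9 CPM. Hepatocyte clusters p1 and p5 held no Tfrc count in 64 and 57 cells, which by the limit of 3 counts allows shares of positive cells of up to 4.69% and 5.26%. In endothelial subcluster e13c a value of 53.1 CPM came to 99.3% from 1 cell.

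Scara5 (chr14:65666403-65764826, plus strand), a scavenger receptor that takes up ferritin, was highest in the Wt1-positive fibroblasts, which the study's annotation places at the liver capsule, although its staining for Scara5 left their site uncertain. The mesenchymal pools held 92.0 and 76.6 CPM. The 113 Wt1-positive fibroblasts (Wt1_FB) held 996 and 618 CPM, 855 CPM together, with a count in 90 of 113 cells (71.0 to 86.6%) and at least 20 counts in 70. The 4 plates with 5 or more of these cells ranged from 618 to 1577 CPM, all above the level of any other annotation. The community clusters m11c and m12c of these fibroblasts both held it, m11c at 918 CPM and m12c at 794 CPM.

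The other fibroblasts held little Scara5. Portal fibroblasts held 12.1 (male) and 2.20 CPM (female), and peribiliary fibroblasts 0.627 and 2.39 CPM. Wt1_FB cells stood 82.6-fold (male) and 281-fold (female) above the former, and 1588-fold and 258-fold above the latter. In portal fibroblasts 98 of 463 cells had a count, but 5 had 20 or more. The stellate cells annotated cHSC, which carry more Wt1 (416 CPM against 185 CPM in Wt1_FB), did not share it and were not among the 5 annotations at or above 5 CPM. The level of Scara5 thus did not follow that of Wt1.

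The next type for Scara5 was smooth muscle. Cells annotated elaSMC held 150 and 224 CPM, with a count in 22 of 34 cells (46.5 to 80.3%) and 20 or more in 12, while arterial smooth muscle cells of subcluster m2c held 2.34 CPM. Among cells without a count of any of 6 Kupffer cell markers, Wt1_FB held 942 CPM (84 cells) and elaSMC 198 CPM (15 cells). In the mixed cells annotated Cont (68.4 CPM), 1 cell held 98.8% of the counts, and that cell gave 95.7% of Scara5 in the male immune pool (5.01 CPM). In cluster m8 (31.8 CPM), 1 of 156 cells held 50.5%.

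**Figure D4:**
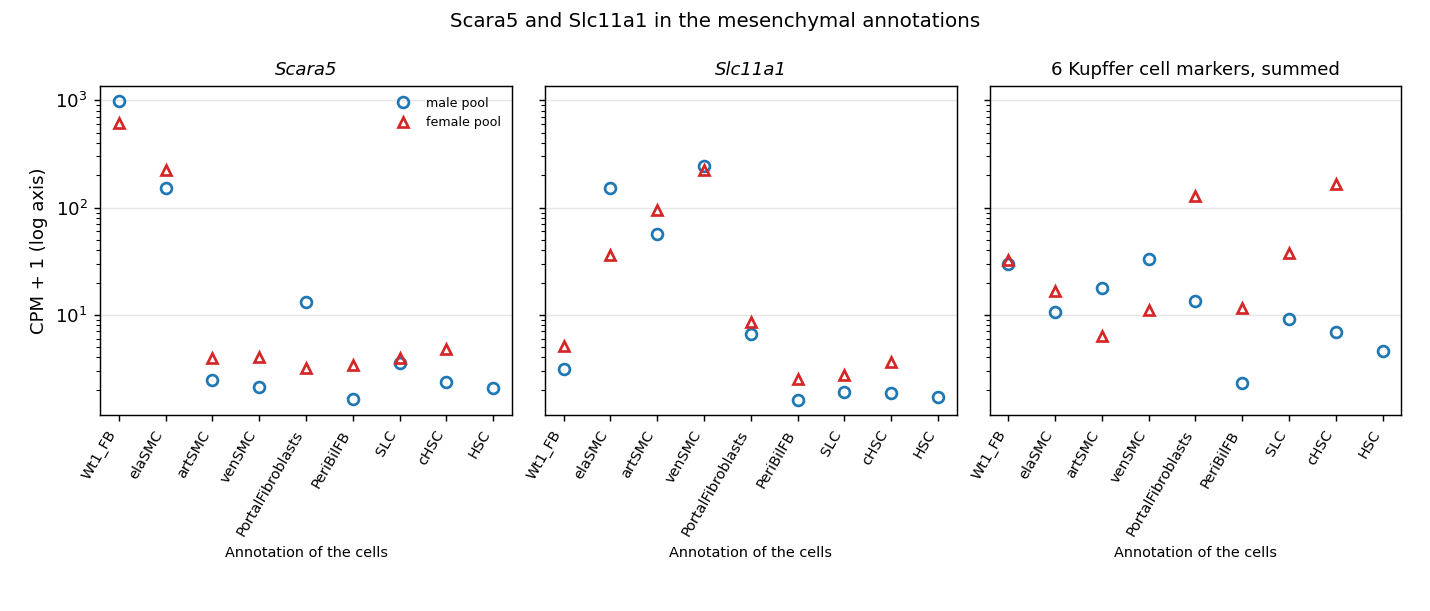
CPM + 1 (log axis) of Scara5, Slc11a1 and the sum of 6 Kupffer cell markers in male (circle) and female (triangle) cells of 9 mesenchymal annotations, for pools with 5 or more such cells. Scara5 peaks in Wt1_FB (996 and 618 CPM) and Slc11a1 in venSMC (244 and 223 CPM), which hold little of the other gene.

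Slc11a1 (chr1:74375195-74386062, plus strand), the phagosomal metal transporter, was highest in Kupffer cells and was also counted in mural cells of the portal tract. The immune pools held 494 and 1182 CPM, and the mesenchymal pools, at 31.9 and 48.1 CPM, came next. Kupffer cells held 775 and 1225 CPM with a count in 439 of 469 cells, the Kupffer subset annotated sKC 961 CPM, cycling cells 753 CPM and monocytes 333 CPM. B cells and lymphatic endothelial cells were not among the 9 annotations at 5 CPM or more. Within monocytes the i2c subcluster, of the monocyte-derived kind, held 519 CPM.

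In the vessel wall Slc11a1 was highest in venous smooth muscle. Cells annotated venSMC held 244 and 223 CPM, with a count in 54 of 111 cells (39.0 to 58.3%) and 20 or more counts in 36. Of their 2 subclusters, m8c held 346 and 388 CPM in 72 cells and m9c held 0.667 and 32.7 CPM in 39 cells. Ephx3, the marker of portal mural cells, was at 1130 CPM in venSMC, 437 CPM in arterial smooth muscle (artSMC) and 50.6 CPM in elaSMC. Slc11a1 had the same order over both sexes, with 79.8 CPM in artSMC (56.3 and 94.7 CPM) and 59.1 CPM in elaSMC (152 and 35.5 CPM), but among male cells elaSMC exceeded artSMC. Kupffer cells stood 3.22-fold above m8c.

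Kupffer cell transcripts were low where Slc11a1 was counted in mural cells. The 6 Kupffer cell markers (Clec4f, Vsig4, Cd5l, Timd4, Adgre1, Cd68) summed to 39.2 CPM in m8c and 9.80 CPM in artSMC, against 16477 CPM in Kupffer cells. Among cells with no count of any of them, m8c held 354 CPM, with a count in 31 of 58 cells and 20 or more in 26. The same selection left artSMC at 73.3 CPM (155 cells, 23 with 20 or more counts) and elaSMC at 75.8 CPM (15 cells, 2 with 20 or more counts). It took portal fibroblasts from 6.15 to 0.833 CPM, sinusoidal endothelial cells from 7.02 to 1.09 CPM and m9c from 13.6 to 0.712 CPM. The Kupffer cell marker sum of m9c was 2.68 CPM over all its cells. The values of m8c and artSMC thus changed little among cells without these counts, that of elaSMC rose, and those of the other 3 groups fell. The part of stray Kupffer cell RNA in these values was not tested.

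Hmox1 (chr8:75093621-75100589, plus strand), whose product opens the haem ring and frees its iron, led in Kupffer cells and came second in endothelial cells. The immune pools held 680 and 1313 CPM, the endothelial 115 and 109 CPM, the mesenchymal 40.2 and 48.7 CPM and the epithelial 14.4 and 22.7 CPM, and no 2 neighbours in this order overlapped. Kupffer cells held 1245 and 1347 CPM, with a count in 458 of 469 cells, and plates from 1103 to 1417 CPM. Monocytes held 230 CPM, 5.76-fold less than Kupffer cells, and B cells 9.84 CPM. Slc40a1, Hmox1 and Slc11a1 were all counted in 431 of 469 Kupffer cells (91.9%, interval 89 to 94.2%).

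Endothelial cells of the sinusoids, portal veins and central veins held Hmox1 between 87.9 and 142 CPM. Sinusoidal cells (Sinusoid_EC) held 128 and 205 CPM, the cells annotated lastSinusoid 100 CPM, portal vein cells 92.6 CPM and central vein cells 87.9 CPM. In cells with no Kupffer cell marker count these were 132, 110, 74.1 and 79.0 CPM. Lymphatic endothelial cells held 2.31 CPM, the lowest of the 21 annotations with 20 or more cells. Hepatocytes held 19.7 CPM, and 6.0 CPM where no Kupffer cell marker was counted. A value of 122 CPM in the 14 peribiliary vascular cells came to 99.8% from 1 cell.

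Fth1 (chr19:9980598-9985098, plus strand), the heavy chain of ferritin with its iron-oxidising site, was counted in nearly every cell. The pools held 2502 and 1566 CPM in immune cells, 1715 and 1462 in mesenchymal, 1812 and 1152 in epithelial and 928 and 772 in endothelial cells. With both sexes summed, hepatocytes (2527 CPM) were highest and lastSinusoid (653 CPM) lowest of the 21 annotations with 20 or more cells, a 3.87-fold range. The same range was 597-fold for Slc40a1 and 2959-fold for Slc11a1. The latter rests on a lowest value of 0.386 CPM, in LEC, and is uncertain. Hepatocyte cluster p1 held 3617 CPM and p3 1705 CPM. Kupffer cells held 3347 and 1569 CPM, so the male cells exceeded the female and the hepatocytes, which were nearly all male, and the plates ranged from 1527 to 3918 CPM.

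Ftl1 (chr7:45457944-45459884, minus strand), the light chain that helps form the iron core, was also general but with a different order. The immune pools held 1329 and 1337 CPM, the endothelial 887 and 858, the epithelial 1081 and 560 and the mesenchymal 710 and 629 CPM. With both sexes summed, hepatocytes led with 1818 CPM (p1 2400 CPM), although the male Kupffer cells, at 1940 CPM against 1334 CPM in the female, lay above them, and arterial smooth muscle cells were lowest with 352 CPM, a range of 5.16-fold. A gene model for a miRNA, Gm22133 (chr7:45458089-45458197, same strand), lies inside Ftl1 and was counted at 0.351 to 0.444 of the Ftl1 count in every annotation. With its counts added, Ftl1 would stand at 1849 and 1858 CPM in immune cells and at 1003 and 881 CPM in mesenchymal cells, and how reads were shared between both models is not given in the sources used here.

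The balance of the ferritin chains differed between cell types. Per kilobase of transcript, Fth1 exceeded Ftl1 4.56-fold in artSMC and 4.41-fold in elaSMC, 1.45-fold in hepatocytes and 1.37-fold in Kupffer cells. In Sinusoid_EC and lastSinusoid the ratio was 0.813 and 0.886, so that Ftl1 was the higher. By class the male and female ratios were 2.52 and 2.42 in mesenchymal, 1.75 and 2.14 in epithelial, 1.96 and 1.22 in immune, and 1.09 and 0.937 in endothelial cells. The Ftl1 side of these ratios leaves out the counts given to Gm22133. With them added, 7 of 24 annotations lay below 1 instead of 2, Kupffer cells (0.982), portal vein (0.763) and central vein cells (0.909) among them, and artSMC and elaSMC stood at 3.23 and 3.12. Both mesenchymal pools lay above and both endothelial pools below all others, and the immune and epithelial pools overlapped.

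Slc40a1 (chr1:45908068-45926523, minus strand), the iron exporter ferroportin, was mainly a Kupffer cell gene with a clear order of classes. The immune pools held 1621 and 2646 CPM, the endothelial 205 and 181, the epithelial 160 and 135 and the mesenchymal 89.1 and 80.7 CPM, with no overlap between neighbours. Every one of the 469 Kupffer cells had a count, at 3191 and 2720 CPM. The sKC cells held 2980 CPM and the cycling cells 2304 CPM, while monocytes held 223 CPM and B cells 16.9 CPM. Kupffer cells thus stood 9.22-fold above Sinusoid_EC and 6.53-fold above hepatic stellate cells, the highest type outside the immune class.

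Among stellate cells, Slc40a1 was at 430 CPM in the cells annotated HSC (69 of 73 male) and at 197 and 395 CPM in cHSC. HSC had a count in 49 of 73 cells (55.1 to 77.7%). The Kupffer cell markers summed to 3.91 CPM in HSC, and the 59 HSC without any such count held 385 CPM. Second layer cells held 155 CPM, whereas elaSMC held 4.7 CPM and Wt1_FB 16.2 CPM. With both sexes summed, stellate cells thus held more of the exporter than any other mesenchymal annotation with 20 or more cells. The pools of cHSC (197 and 395 CPM) and of second layer cells (125 to 218 CPM) overlapped, however.

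Slc40a1 also divided the endothelium. Sinusoid_EC held 289 and 375 CPM and lastSinusoid 190 and 349 CPM, against 24.9 and 28.0 CPM in portal vein and 74.4 and 45.6 CPM in central vein cells. The sinusoidal cells together stood 11.4-fold above portal vein (11.2 in male and 12.9 in female cells) and 5.03-fold above central vein (3.75 and 7.92). Kupffer cell markers summed to 210 CPM in Sinusoid_EC and 29.5 CPM in lastSinusoid, and the cells without them held 318 and 343 CPM. The multilevel cluster e8 held 406 CPM beside a Kupffer cell marker sum of 941 CPM, whose part in that value was not tested.

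Epithelial cells held less Slc40a1, with 165 CPM in cholangiocytes and 147 CPM in hepatocytes. Hepatocyte clusters ranged from 220 CPM in p4 and 185 CPM in p1 to 54.1 CPM in p5 and 36.9 CPM in p3. The Kupffer cell marker sum was 276 CPM in p1, 46.9 in p3, 18.7 in p4 and 5.74 CPM in p5. Cells without those counts held 172 CPM (cholangiocytes) and 125 CPM (hepatocytes). In the female epithelial pool the same marker sum was 428 CPM against 46.8 CPM in the male pool, and its part in that pool's Slc11a1 value of 26.1 CPM (1.31 CPM in the male pool) was not tested.

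Cp, the copper oxidase ceruloplasmin, was not mainly a hepatocyte gene here. The epithelial pools held 1498 and 1167 CPM, and cholangiocytes 2390 and 1197 CPM with a count in 190 of 194 cells. Hepatocytes held 99.1 CPM, 22.9-fold less, with 271 CPM in p3 and 168 CPM in p4 but 26.8 CPM in p5 and 6.14 CPM in p1. Clusters p3 and p4 were also those with the most hepatocyte marker transcripts. Cp lies at chr3:19957054-20009145 and overlaps Hps3 on the other strand, which was counted at 38.6 CPM over all cells, and reads of this kit do not keep the strand. Hps3 stood at a median of 0.533 and up to 24.5 times the Cp count across annotations, so the low Cp values below are uncertain.

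Mesenchymal cells were the second source of Cp, with 456 and 179 CPM. Peribiliary fibroblasts held 737 and 440 CPM, HSC 505 CPM, second layer cells 463 CPM, portal fibroblasts 509 and 274 CPM, cHSC 465 and 274 CPM, Wt1_FB 447 and 159 CPM and venSMC 315 and 268 CPM. Arterial smooth muscle cells held 24.6 and 9.04 CPM and elaSMC 18.8 CPM, so venSMC stood 12.8-fold above artSMC in male and 29.6-fold in female cells. The level of artSMC is among the low values that the overlap with Hps3 makes uncertain. In the endothelium Cp was a lymphatic gene, with 913 and 1747 CPM in 22 LEC cells, 20 of which had a count, although 1 cell held 31.7% of the counts. Sinusoid_EC held 5.23 (male) and 7.12 CPM (female), 175-fold and 246-fold less, and lastSinusoid 1.42 CPM.

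The order of the annotations was less firm than their extremes. Hepatocytes, HSC, monocytes, B cells, sKC and mesothelial cells had fewer than 5 cells of a sex. Among the other 18 annotations, neighbours in the order of mean level lay apart, with no overlap between their pools, in 6 of 17 steps for Slc40a1, 5 for Ftl1 and Cp, 3 for Slc11a1, 2 for Scara5 and Hmox1, 1 for Hamp and Tfrc, and 0 for Tfr2 and Fth1. All other neighbours did not differ beyond the spread of their pools. Within these 18, the first place of Kupffer cells for Slc40a1 and Tfrc and of Wt1_FB for Scara5 was clear of the next type between pools. Outside them, monocytes held more Tfrc, at 113 CPM.

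Within Kupffer cells the rank correlation of Fth1 and Ftl1 over single cells was 0.65 in 115 male and 0.38 in 354 female cells. All other pairs of Slc40a1, Hmox1, Slc11a1, Fth1, Ftl1 and Tfrc lay between -0.32 and 0.29 in either sex. Cells of a pool share plates and differ in depth, so these values are descriptive.

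Across the 30 multilevel clusters, the genes nearest to each member by Pearson correlation of log2(CPM + 1) were sought among the 18590 genes that reached 5 CPM in at least 1 cluster. Hamp lay nearest to the hepatocyte genes Cyp2c70 (0.94), Igfals (0.94) and Nat8f2 (0.94), and Tfr2 to Ugt2b1 (0.82), Cldn1 (0.82) and Xkr9 (0.81). Slc40a1 lay nearest to Lacc1 (0.88), Irf7 (0.87) and the Kupffer cell gene Folr2 (0.86), Slc11a1 to Fabp7 (0.90), Clec4n (0.88) and Timd4 (0.88), and Hmox1 to Fes (0.91), Itsn1 (0.88) and Ttll3 (0.87). For Scara5 these were Mfap5 (0.86), a microfibril gene, Dpf1 (0.80) and Hmcn2 (0.77), and for Cp they were Anpep (0.92), Fn1 (0.86) and Tmem53 (0.85). Tfrc lay nearest to Dennd1c (0.90), Psd4 (0.89) and Cyp4f18 (0.88), and Fth1 to Churc1 (0.79), Mif (0.78) and Fahd2a (0.78). The nearest to Ftl1 was Gm22133 (0.99), whose model lies inside it, then Ftl1.ps2 (0.89) and Gm12164 (0.88), both of them pseudogenes that may take ferritin reads. Between members, Slc40a1 and Hmox1 had a correlation of 0.82 and Hamp and Tfr2 of 0.61, while Hamp and Slc40a1 had 0.07.

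A list of 48 other iron genes, 47 of them in the table, placed the members among their partners. Epithelial cells led for 15 of the 47, endothelial cells for 14, immune cells for 9 and mesenchymal cells for 9, and for 32 the same class led in both pools. No minimum level or margin was set for this tally. It includes Ftmt, at 0.003 CPM in mesenchymal cells, and Steap2, at 39.45 CPM in mesenchymal and 39.41 CPM in epithelial cells. Transferrin itself (Trf) was at 4972 CPM in hepatocytes, which also held Tmprss6 at 184.4 CPM and Hjv at 47.5 CPM. Cholangiocytes held Tmprss6 at a like level, 172.4 CPM. HJV is a co-receptor that raises hepcidin and TMPRSS6 a protease that cuts it. The bone morphogenetic proteins that induce hepcidin were highest in Sinusoid_EC, with Bmp2 at 1273 CPM and Bmp6 at 143 CPM. The inducers were thus highest in sinusoidal endothelium, and the co-receptor and the hormone in hepatocytes.

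Kupffer cells held several genes of haem handling beside Hmox1 and Slc40a1. Among them were the haemoglobin receptor Cd163 at 905 CPM, the haem transporter Slc48a1 at 475 CPM and the biliverdin reductase Blvrb at 641 CPM. Slc48a1 was higher in the 6 mesothelial cells (1313 CPM) and near the Kupffer cell level in artSMC (459 CPM). Hfe, a sensor of plasma iron, was at 721 CPM in Kupffer cells. Of the genes of haem synthesis, Alas1 and Fech were highest in hepatocytes, at 464 and 448 CPM. Other haem genes of the list were also highest outside Kupffer cells: Bach1 in LEC, Nfe2l2 in lastSinusoid and Flvcr2 in peribiliary vascular cells. Hmox2 was highest in Kupffer cells, Blvra in cycling Kupffer cells and Flvcr1 in sKC. The haem genes of the list thus did not share 1 leading cell type. Stellate cells held the metalloreductase Steap4, at 1413 CPM in HSC and 1174 CPM in cHSC. The ferroxidase Heph, a relative of Cp, was at 96.5 CPM in cHSC, 87.8 CPM in second layer cells and 85.2 CPM in LEC. Wt1_FB cells held the endosomal reductase Steap3 at 431 CPM beside Scara5. Lymphatic endothelial cells held Lcn2, a siderophore binder, at 722 CPM.

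Whether the members differ between the sexes was tested on sums of 1408 cells, drawn so that each multilevel cluster gave as many male as female cells (39 epithelial, 310 endothelial, 37 immune and 318 mesenchymal cells of each sex). With the cell class as a term in edgeR, 3 of 20587 genes were called at an adjusted p under 0.05, which is 0.0146% of those tested. They were Xist, higher in female cells, and Ddx3y and Eif2s3y, higher in male cells. None of the 10 members was called (0 by edgeR and 0 by DESeq2, which called 145 genes in all). At an unadjusted p under 0.05 by edgeR there were 2 of the 10 members, Fth1 and Scara5, and 1015 of all genes tested, which is 4.93%. With 2 pools per class and 3 residual degrees of freedom, the p-values measure the spread between these pools only.

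The intervals of the member differences were wide except for 4 genes. The log2 difference, female minus male, was 0.01 ± 0.21 (SE) for Slc40a1, 0.00 ± 0.23 for Hmox1, -0.12 ± 0.17 for Ftl1 and -0.48 ± 0.15 for Fth1, from 8 pools each. For Fth1 the edgeR p was 0.0151 and the adjusted p 0.896. In the matched sums the male and female epithelial cells held Fth1 at 1576 and 1152 CPM, the endothelial at 1083 and 821, the immune at 2394 and 1698 and the mesenchymal at 1727 and 1447 CPM. Male cells were thus higher in 4 of 4 classes, without passing the adjusted threshold.

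Scara5 had the largest difference among the members, -3.02 ± 1.15 (edgeR p 0.0334, adjusted p 0.896). In mesenchymal cells, which hold most of it, the male and female sums were 99.6 and 74.4 CPM, a 1.34-fold difference. The immune sums held 39.3 and 0.809 CPM, and the epithelial and endothelial sums 8 and 0 and 21 and 4 counts. Without the 12 cells annotated Cont in the matched sums the difference was -1.13 ± 1.19, and without the male or the female immune pool it was -1.81 or -1.76. Without the male or the female mesenchymal pool it was -4.35 or -4.33. Slc11a1 was at 0.44 ± 1.01, Cp at -0.35 ± 0.46 (-0.88 to -0.02 with a pool left out), Tfrc at -0.51 ± 1.14, Hamp at -0.31 ± 2.06 and Tfr2 at 0.03 ± 1.06, with adjusted p from 0.926 to 0.997 by edgeR. The median of the members was -0.22, with 4 above and 6 below 0, and that of all genes tested was 0.09. Of the other iron genes 44 were tested, 0 were called, and their median was -0.01. Of these 44 genes 2 had an unadjusted p under 0.05, Pcbp1 and Id1, a share no higher than the 4.93% of all genes tested.

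**Figure D5:**
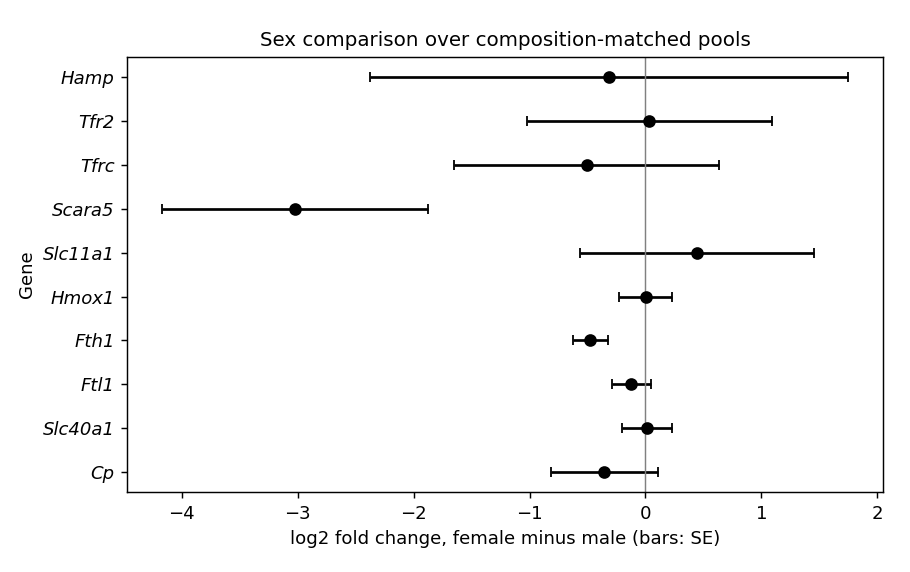
Fitted log2 difference, female minus male, of each member over the 8 matched sums, with the standard error as bar and a line at 0. Slc40a1, Hmox1 and Ftl1 sit at 0 within their error, Fth1 at -0.48, and the bars of Hamp, Tfrc, Tfr2 and Slc11a1 span 0 widely.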

How the data were processed

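Single cells were sequenced by Smart-seq2 without molecular identifiers and with single reads of a kit that does not keep strand. The authors deposited raw counts per gene and cell. Their processing notes name GRCm38 (mm10), bcl2fastq, Bowtie, Bowtie2, featureCounts, Subread and Seurat, and their methods state that cells of low depth, putative doublets, contaminated cells and rarely counted genes were removed. No doublet caller was run here. Cell annotations and clusters were also deposited by the authors, who made them on the same transcriptomes.

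Here, the counts of all cells in a group were added and divided by the total without the 92 spike-in (ERCC) rows, giving CPM. A cell counts as positive from 1 count, or from 20, the authors' limit. Shares carry exact Clopper-Pearson 95% intervals for counting error. Elements were searched in 1 transcript per gene of GENCODE vM21. The sexes were compared with edgeR 4.0.16 in R 4.3.3 (quasi-likelihood, TMM, filterByExpr, class and sex as terms, Benjamini-Hochberg over all genes), and DESeq2 1.42.0 was an alternative. The script was tested on simulated data. Levels were computed with Python 3.11.15, pandas 2.3.3 and scipy 1.17.1. The alternatives were thinning each cell to 50000 counts (13 shallower cells left out), other draws, no filter, cluster sums, and each pool left out. The text names the members and the 3 genes nearest to each, and of the other iron genes those next to a member in role or called. The members and lists were chosen with earlier results of these data known. Alternatives without Cont cells, without Kupffer cell marker counts and with Gm22133 were chosen after seeing the data. The marker Hbb-bs had no row, and Hbb.b1 was used.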

Additional observations from a re-analysis of the deposited data

How the results depend on the processing

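By level, the leading class was the same for 10 of 10 members when CPM were averaged over cells and when cells were thinned to 50000 counts. The leading class by share of positive cells is a separate ranking, in which mesenchymal and not epithelial cells led for Cp. That leader was the same for 6 of 10, both at 20 counts and after thinning. For Tfr2 and Cp both settings moved it to epithelial cells, the leader by level. It also moved for Fth1 and Ftl1, which were counted in nearly every cell. The number of genes called between the sexes, 3, became 145 with DESeq2, 5 with all cells, 329 with cluster sums (which share plates, so that their p-values are too small), 4 without the filter, 1 with the draws of seeds 3 and 4, 2 with that of seed 5 and 1 without the cells annotated Cont, and lay between 0 and 1 when any pool was left out. Leaving out either immune or either epithelial pool gave 0 calls and either mesenchymal or endothelial pool 1. Of the members, Fth1 was called with cluster sums alone (-0.41, adjusted p 0.0140 by edgeR; 0.0140 to 0.961 over all settings).

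The sign of small member differences changed with the setting, and the cause was not tested. For Hamp the log2 difference, female minus male, was 0.44 with cluster sums, 1.13, 0.79 and 0.31 with the draws of seeds 2, 4 and 5, and 0.86 after thinning. After thinning Tfrc stood at 0.21 and Ftl1 at 0.10. With all cells Tfr2 stood at -1.86, Slc40a1 at -0.048 and Cp at 0.086. With seed 4 Tfr2 stood at -0.56, Slc40a1 at -0.074 and Hmox1 at -0.073. Slc40a1 was at -0.027 and Hmox1 at -0.039 without the filter, and Slc40a1 at -0.41 with cluster sums and -0.059 and -0.18 with seeds 2 and 5. Without the cells annotated Cont, Cp stood at 0.32. Leaving out each pool gave ranges of -1.70 to 0.95 for Hamp, -1.24 to 0.34 for Tfrc, -0.42 to 0.84 for Tfr2, -0.14 to 0.14 for Slc40a1, -0.49 to 1.27 for Slc11a1, -0.11 to 0.14 for Hmox1 and -0.88 to -0.02 for Cp. Fth1 and Scara5 stayed below 0 in every setting run. Depth limits the shares, of which 6 of 10 moved after thinning.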
